A study of Mus musculus with 2 samples.

Results

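Hemoglobin-rich spots were the spots of each cerebellar section that held the highest share of hemoglobin transcripts. Among spots under tissue with at least 2000 UMIs (unique molecular identifiers, each standing for 1 captured probe molecule), the top 3% of each section by the summed CPM (counts per 1000000 UMIs of the spot) of genes whose symbol starts with Hba- or Hbb- were taken. This gave 95 of 3164 such spots in section 1 and 117 of 3902 in section 2, or 212 spots of 7423 under tissue in all. Their neighbors were the other spots with at least 2000 UMIs within 3 steps on the hexagonal array, 775 in section 1 and 1003 in section 2. Both sections were 5-µm slices of formalin-fixed mouse cerebellum that carried a tumor grown from transplanted breast cancer organoids, read with the Visium CytAssist assay, and 1 section per replicate was deposited. The organoids, labeled HP-F1 +cre for section 1 and HP-B6 +cre for section 2, came from mouse mammary tumors with the genotype HP, which is a human HER2 V777L transgene behind a lox-STOP-lox element under an actin promoter together with PIK3CA H1047R. Cre adenovirus in the mammary gland had induced those tumors, the cells were luciferase-labeled and selected as clones, and the hosts, described as syngeneic, were C57BL/6 mice that received no treatment. The labels do not say how HP-F1 and HP-B6 differ. The organoid label goes with the section, so that differences between organoids and between sections cannot be told apart. There was no tumor-free section, so that every comparison was made between spots of the same section, with the section as the replicate (n = 2) and never the spot.

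Red blood cells of mammals carry hemoglobin, a tetramer of alpha-like and beta-like globin chains that each hold a heme. Mature red cells have no nucleus, and the globin transcripts they contain are left over from reticulocytes and erythroblasts. In brain tissue hemoglobin transcripts can therefore mark blood that lies inside vessels as well as blood outside them, and low globin expression has also been described in neurons. Heme set free from red cells is broken down by heme oxygenases into iron, biliverdin and carbon monoxide, and macrophages take up and store or export the iron. The transcripts of a spot, which can cover several cells, do not say on which side of a vessel wall blood lies, and the spots are therefore called hemoglobin-rich in what follows.

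The level that chose the spots was low in absolute terms. The hemoglobin level of single chosen spots ran from 244.2 to 4959 CPM in section 1, with a median of 363.7, and from 388.8 to 12906 CPM in section 2, with a median of 881.2. The highest spot left out stood at 243.4 CPM in section 1 and at 388.2 CPM in section 2, so that the limit did not fall in a gap. No hemoglobin UMI at all was counted in 75.9% of spots with at least 2000 UMIs in section 1 and in 69.8% in section 2. The chosen spots of section 1 held 638 hemoglobin UMIs and those of section 2 held 2896, or 41.7% and 58.6% of all hemoglobin UMIs in spots with at least 2000 UMIs. In section 1, 33 of the 95 spots were chosen on a single hemoglobin UMI, 28 had 2 to 4, and 34 had at least 5. The level is a share of the UMIs of the spot, so that a single UMI passed the limit only in spots of low depth. In section 2, 6 of the 117 had a single UMI, 21 had 2 to 4, and 90 had at least 5. The spots with at least 5 held 83.9% and 97.7% of the hemoglobin UMIs of their section's chosen spots. The chosen set of section 1 was thus much sparser than that of section 2.

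The promoters of the 3 globin genes that made up most of the signal, and of Alas2, the erythroid form of the enzyme that starts heme synthesis, are shown because these genes set the level by which the spots were chosen or, for Alas2, moved with it. Each is the 250 bases before the transcription start, 5′ to 3′ on the strand of the gene, from RefSeq on GRCm38.p6, and capitals mark matches on either strand to 3 short motifs: GATAA, the core of what GATA factors read, then CACCC, a box read by factors of the KLF family, and lastly CCAAT, a box found in many promoters. Some matches overlap.
Hba-a2, chr11:32296242-32296491, plus strand: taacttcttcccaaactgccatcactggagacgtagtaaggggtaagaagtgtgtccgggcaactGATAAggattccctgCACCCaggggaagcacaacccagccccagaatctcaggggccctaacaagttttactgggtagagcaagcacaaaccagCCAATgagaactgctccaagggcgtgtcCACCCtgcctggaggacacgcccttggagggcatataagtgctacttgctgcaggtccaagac
Hbb-bs, chr7:103827929-103828178, minus strand: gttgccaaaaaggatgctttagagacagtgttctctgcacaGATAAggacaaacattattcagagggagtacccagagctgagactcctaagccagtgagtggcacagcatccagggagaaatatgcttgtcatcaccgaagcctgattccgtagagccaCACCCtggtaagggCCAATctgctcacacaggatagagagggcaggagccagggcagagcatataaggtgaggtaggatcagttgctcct
Hbb-bt, chr7:103813924-103814173, minus strand: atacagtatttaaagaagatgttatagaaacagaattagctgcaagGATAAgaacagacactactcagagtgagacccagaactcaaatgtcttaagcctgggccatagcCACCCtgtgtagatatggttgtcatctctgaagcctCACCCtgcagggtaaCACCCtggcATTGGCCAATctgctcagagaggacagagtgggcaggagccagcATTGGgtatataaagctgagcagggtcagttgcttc
Alas2, chrX:150547167-150547416, plus strand: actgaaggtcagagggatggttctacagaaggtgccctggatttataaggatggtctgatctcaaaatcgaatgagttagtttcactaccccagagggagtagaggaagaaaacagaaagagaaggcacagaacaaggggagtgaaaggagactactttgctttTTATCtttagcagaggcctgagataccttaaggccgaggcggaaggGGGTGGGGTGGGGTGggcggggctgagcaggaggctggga
The GATA core and the CACCC box were in all 4 windows, and the CCAAT box was in the 3 globin windows and not in that of Alas2. Among 32851 RefSeq promoter windows of the same length, 22.6% held the GATA core, 52.0% the CACCC box and 33.8% the CCAAT box, so that each on its own is common. A match is a match of letters only.

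Adult globin genes made up nearly all of the hemoglobin in the chosen spots, and this is given without a test because hemoglobin chose them. Hbb-bs, an adult beta chain gene, had 296 UMIs in the chosen spots of section 1 and 1465 in those of section 2, which is 346.0 and 684.5 CPM against 14.0 and 21.1 CPM in neighbors. Hba-a2, an adult alpha chain gene, had 262 and 1284 UMIs, or 306.3 and 599.9 CPM against 14.1 and 21.1 CPM. Hbb-bt, the other adult beta chain gene, had 32 and 139 UMIs. Hba-a2, the only adult alpha chain gene counted, thus gave 41.1% and 44.3% of the hemoglobin UMIs of the chosen spots. Genes are read by different probes, so that these shares do not give the relative amounts of alpha and beta chains. The embryonic genes contributed little. Hba-x, an embryonic alpha-like gene, had 20 UMIs in section 1 and 1 in section 2, and Hbb-bh1, an embryonic beta-like gene, had 8 and 4. Hbb-y, a further embryonic beta-like gene, had 0 in both, which does not exclude a low level. Hbb-bh2 had 20 and 3. In section 1, 17 of the chosen spots held no adult globin UMI and were chosen through Hba-x, Hbb-bh1 or Hbb-bh2 alone, against 1 spot in section 2. The 7 genes have closely related sequences, and how the probes or the counting split them is not known here. By the RefSeq annotation of GRCm38.p6, Hba-a2 and Hba-x lie on chromosome 11 (Hba-a2 at chr11:32296492-32297310) and the beta-like genes lie on chromosome 7 (Hbb-bs at chr7:103826523-103827928).

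The alpha and beta chains could be set against each other, since 1 can choose the spots and the other can be read in them. In the top 3% of spots by Hbb-bs and Hbb-bt, Hba-a2 stood at 231.9 CPM in section 1 and 587.0 CPM in section 2, against 13.5 and 22.5 CPM within 3 steps of them, a ratio of 17.2 and 26.1. In the top 3% by Hba-a2, the beta chains stood at 306.3 and 745.8 CPM against 14.6 and 27.0 CPM, a ratio of 20.9 and 27.6. Both ratios were far above 1 in both sections. The 2 kinds of chain thus marked overlapping spots although they are encoded on different chromosomes and read by different probes. In section 1, Hba-a2 was seen in 38.9% of the spots chosen by beta chains, against 9.83% of their neighbors, at median depths of 8190 and 7490 UMIs. In section 2, it was seen in 82.1% against 31.8%, at 13709 and 21220 UMIs.

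**Figure D1:**
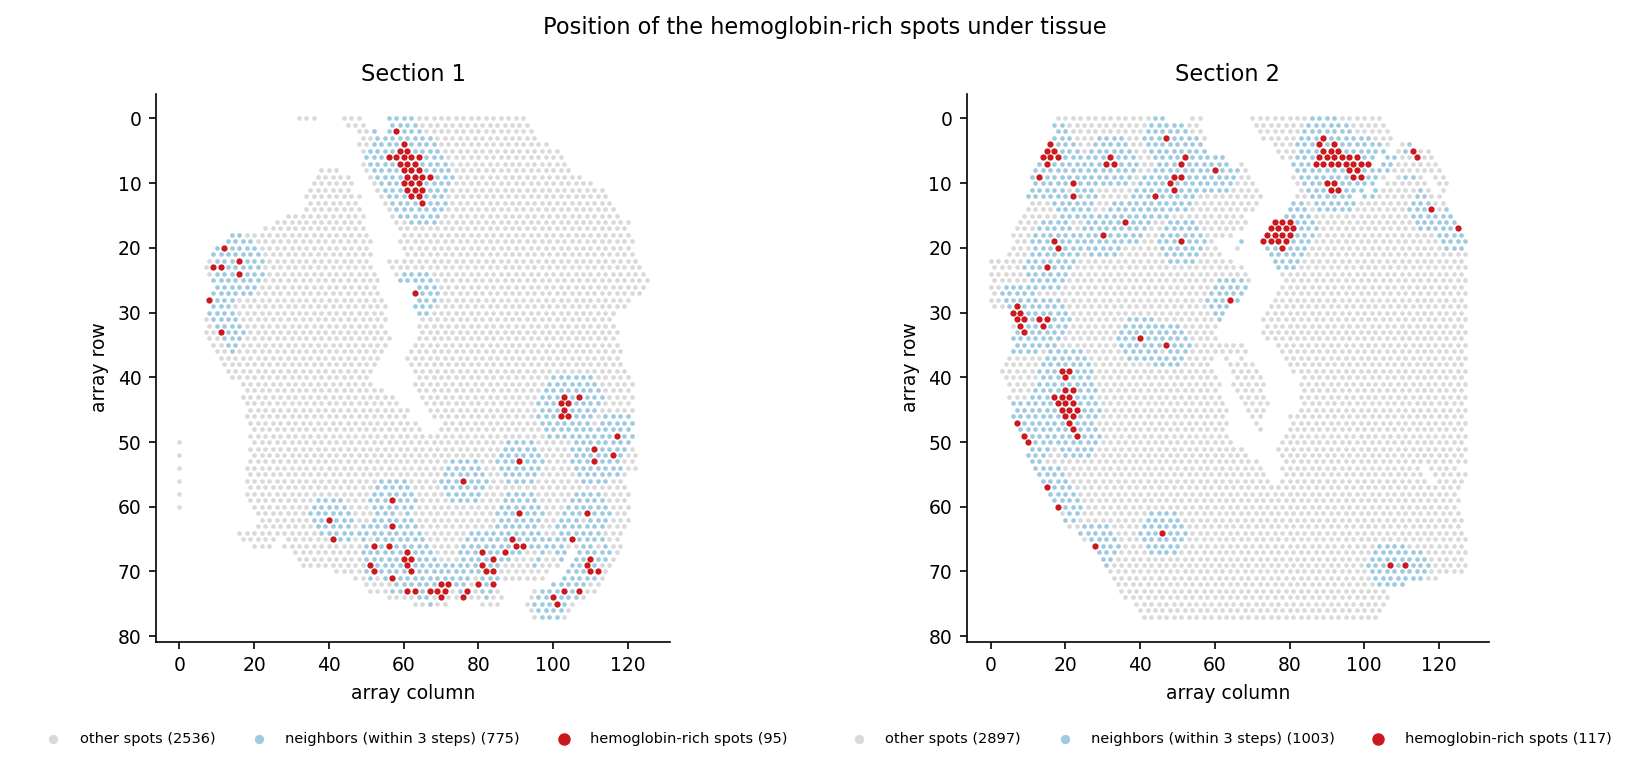
Position of the 95 hemoglobin-rich spots of section 1 and the 117 of section 2 (red), their neighbors within 3 steps (blue) and the other spots under tissue (gray), by array column and array row. Most red spots touch another red spot, and the largest patches hold 27 spots in section 1 and 24 in section 2.

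Hemoglobin-rich spots lay in patches. In section 1, 67.4% of them touched another one, and in section 2, 81.2% did. Touching spots formed 43 patches in section 1, of which 31 were single spots, and 36 patches in section 2, of which 22 were single spots. The largest patch of section 1 had 27 spots and held 72.4% of the hemoglobin UMIs of the chosen spots of that section, so that section 1 rested largely on 1 place. The largest of section 2 had 24 spots and held 30.5%, and the next, with 16 spots, held 19.6%.

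Markers of the labeled tissue were present, with the granule neuron gene Cbln1 at 162 to 310 scaled CPM and the Purkinje cell gene Pcp2 at 107 to 261 scaled CPM over the hemoglobin-rich spots and neighbors. The sections differed in the tissue that surrounded these spots. A spot was called neural-dominated where its summed CPM of granule neuron, Purkinje cell, oligodendrocyte and astrocyte markers exceeded that of epithelial and fibroblast markers. In section 1, 95.8% of the hemoglobin-rich spots were neural-dominated, against 92.8% of neighbors and 73.7% of all spots with at least 2000 UMIs. In section 2, 74.4% were, against 58.6% of neighbors and 78.8% of all. These shares count spots, whereas the comparisons that follow sum UMIs. In section 1, spots dominated by epithelial or fibroblast markers gave 71429 of 855443 UMIs in hemoglobin-rich spots and 1871709 of 7438407 in neighbors. In section 2 they gave 962847 of 2140307 and 17113420 of 25831438. That share of UMIs was larger in neighbors in both sections, and its part in the results was not tested. The median distance to the nearest spot dominated by epithelial or fibroblast markers was 19 steps in section 1 and 2 steps in section 2, against 18 and 2 steps for neighbors and 13 and 10 steps over all spots with at least 2000 UMIs. By median distance, hemoglobin-rich spots were nearer to such tissue than all spots in section 2 and farther from it in section 1. This median counts each spot once. The largest patch of section 1 held 72.4% of the hemoglobin UMIs of the chosen spots of that section. Fibroblast markers summed to 3199 CPM in that patch and to 23628 CPM in the neighbors within 3 steps of it. The share within 3 steps of such tissue was 31.6% in section 1, against 17.3% of neighbors and 32.8% of all, and 60.7% in section 2, against 59.2% and 32.2%. Spots at the edge of the tissue, with fewer than 6 occupied places around them, made up 5.26% of the hemoglobin-rich spots of section 1 and 17.1% of those of section 2. The share over all spots with at least 2000 UMIs was 7.77% and 10.4%.

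Depth differed as well. The median depth of hemoglobin-rich spots was 6798 UMIs (section 1) and 14072 UMIs (section 2), and that of neighbors was 6654 and 21878. Over all spots with at least 2000 UMIs it was 10502 and 12786, and all spots under tissue summed to 63986887 and 71878333 UMIs. Summed over spots, the hemoglobin-rich libraries held 855443 and 2140307 UMIs and the neighbor libraries 7438407 and 25831438. Counting intervals in what follows are exact Poisson intervals at the 95% level and cover counting error only. A higher level in a spot can come from more cells of a type or from more RNA per cell, and these cannot be told apart in spots.

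To find what else differed in hemoglobin-rich spots, UMIs were summed per section over these spots and over their neighbors, hemoglobin genes were left out, and edgeR's quasi-likelihood test compared the 4 libraries, blocked by section. Of 18110 genes tested, 30 were higher in hemoglobin-rich spots and 7 lower at a Benjamini-Hochberg adjusted p below 0.05, which is 0.166% and 0.0387% of the genes tested. The higher genes included Hmox1, an inducible heme oxygenase, Alas2, of heme synthesis in red cell precursors, and the cytokine genes Il1b and Il6. Levels in this comparison are given as scaled CPM, which is CPM over the library size corrected by TMM factors, and folds as log2 values with the standard error (SE).

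Several settings changed the number of calls. With DESeq2's RLE factors in place of TMM, 99 genes were higher and 64 lower, so that the share of higher genes was 60.7% in place of 81.1%. DESeq2 itself called 12 genes, all higher and all among the 37. Without the largest patch of each section 22 genes were called, all higher, 14 of them among the 37, and of the called genes described singly here Hmox1, Il1b, S100a9, Alas2 and Hdc were called again. With the top 1% of spots 39 genes were called, 20 of them among the 37. Without the section as a block edgeR called no gene, and 15 had an unadjusted p below 0.05. No gene was called either when spots were ranked by raw hemoglobin UMIs, where 985 genes had an unadjusted p below 0.05. The spots chosen by raw UMIs were deeper, with 2508845 and 3570009 UMIs in sum, against 855443 and 2140307 for the same number of spots chosen by CPM.

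**Figure D2:**
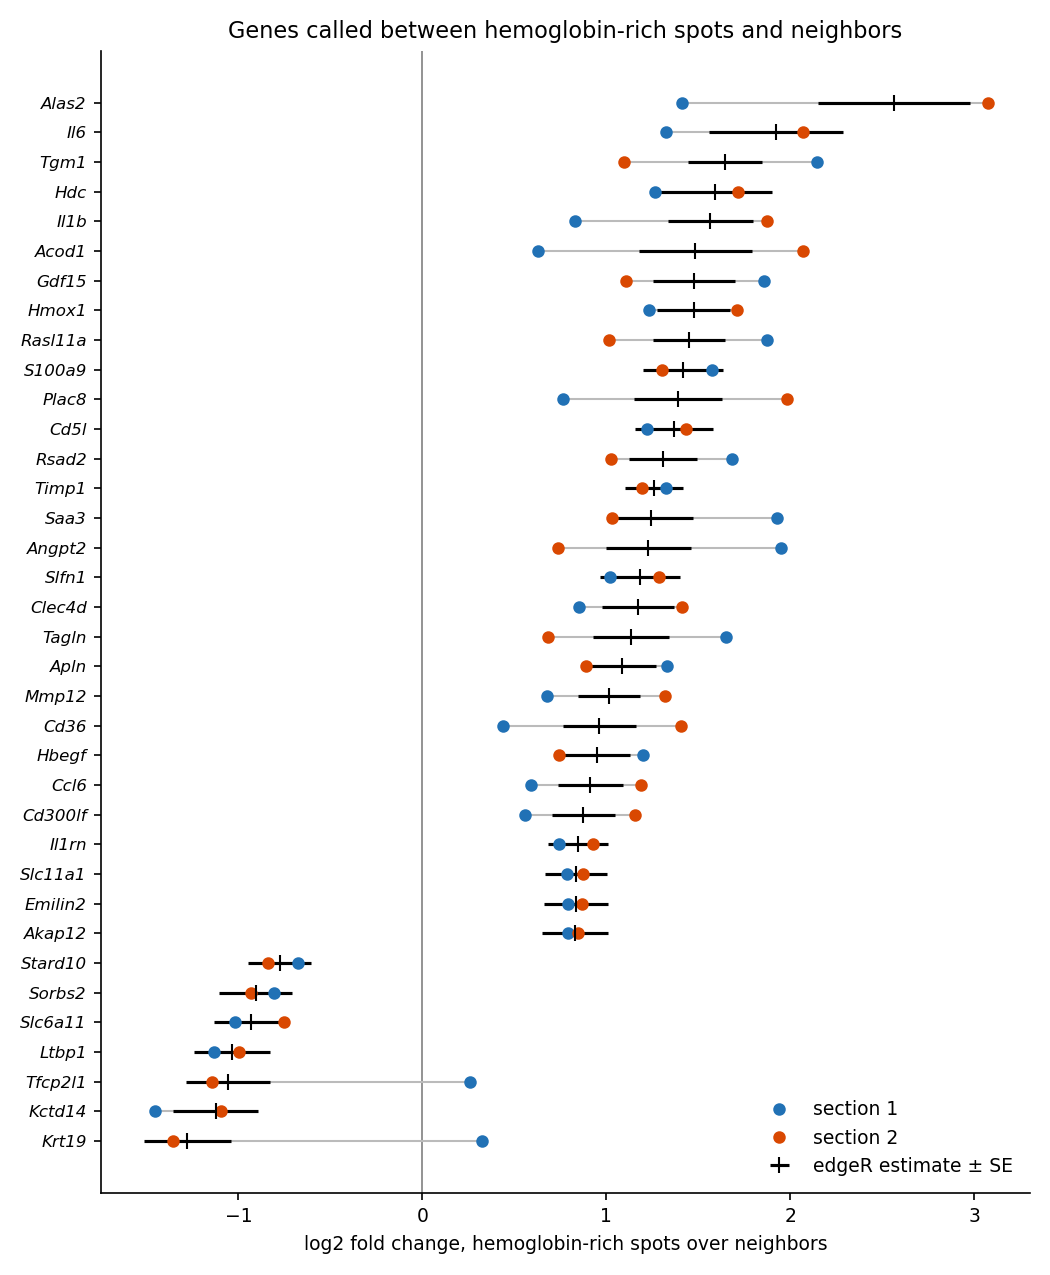
Log2 fold change of 36 of the 37 genes called between hemoglobin-rich spots and their neighbors, in section 1 (blue), in section 2 (orange) and as estimated by edgeR over both (black tick, with the SE as a bar). All 29 higher genes drawn lay above 0 in both sections, while 2 of the 7 lower genes, Krt19 and Tfcp2l1, lay above 0 in section 1.

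Among genes of heme and iron handling, Hmox1 rose most clearly. Its level was 1828 scaled CPM in hemoglobin-rich spots and 776 in neighbors in section 1, and 1366 and 416 in section 2. Both hemoglobin-rich libraries stood above both neighbor libraries. In section 1, 1454 of the 1828 Hmox1 UMIs of hemoglobin-rich spots came from the largest patch and 300 from a patch of 6 spots. In section 2, 904 of 2704 came from a patch of 7 spots. The patches of 6 and 7 spots were kept where the largest patches were left out. The log2 fold change of Hmox1 was 1.48 (SE 0.20), with an adjusted p of 2.46e-04 by edgeR. Without the largest patch of each section it was 1.54 with an adjusted p of 0.00727. With the top 1% of spots it was 1.14 with an adjusted p of 0.0705, and the call was lost, as it was without the block and under ranking by raw UMIs. Slc11a1, a metal transporter of phagosomes, rose by 0.84 (SE 0.17, adjusted p = 0.0183 by edgeR), from 82.7 to 143 scaled CPM in section 1 and from 63.0 to 116 in section 2. Of 26 genes in this list 25 were tested, 2 were called and both were higher, 10 had a positive fold in both sections, and the median log2 fold change was 0.21. Over all genes tested the median was -0.09. In both sections 19.4% of them had a positive fold and 35.4% a negative fold. Hmox2, the constitutive heme oxygenase, had a log2 fold change of -0.09. The ferritin heavy chain gene Fth1, which stores iron, was at 8173 against 6927 scaled CPM in section 1 and 7547 against 4627 in section 2, and did not pass the test (log2 fold change 0.47, adjusted p = 0.587 by edgeR). The transferrin receptor gene Tfrc, for iron uptake, had a log2 fold change of -0.55 and did not pass either. The scavengers Hp and Hpx, for free hemoglobin and heme, had 19 and 9 UMIs in the hemoglobin-rich spots of section 1 and did not pass.

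Red cell genes other than hemoglobin were rare. Alas2 rose from 4.94 to 14.0 scaled CPM in section 1 and from 1.60 to 17.2 in section 2, which rested on 14 and 34 UMIs in the hemoglobin-rich spots. The log2 fold change was 2.57 (SE 0.41, adjusted p = 0.00311 by edgeR). This was the largest fold of the 37 called genes. Slc4a1, the band 3 anion exchanger of the red cell membrane, was at 9 against 3.86 scaled CPM in section 1 and at 0.505 against 2.07 in section 2, in opposite directions. Of 22 erythroid genes 19 were tested, Alas2 was the only one called, and the median log2 fold change was 0.40. In both sections 8 (42.1%) had a positive fold and 5 (26.3%) a negative fold, against 19.4% and 35.4% of all genes tested. Klf1 and Gata1, regulators of red cell precursors, were at 5.00 and 7.00 scaled CPM in section 1 and did not pass. The levels of all erythroid genes summed to 391 against 344 CPM in section 1 and 274 against 219 CPM in section 2.

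Platelet genes gave no call. Ppbp, a platelet chemokine, was at 5.00 against 2.65 scaled CPM in section 1 and at 11.1 against 2.49 in section 2 (log2 fold change 1.78, adjusted p = 0.0779 by edgeR), and Pf4, another, had a log2 fold change of 0.68 with an adjusted p of 0.244. All 13 platelet genes were tested, and the median log2 fold change was 0.39. In both sections 7 (53.8%) had a positive fold and 2 (15.4%) a negative fold, against 19.4% and 35.4% of all genes tested. Summed platelet genes stood at 218 against 170 CPM in section 1 and at 240 against 120 CPM in section 2. Macrophages can express Pf4 too, so that it does not mark platelets alone.

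S100a9 and Plac8, of neutrophils and monocytes, were higher in hemoglobin-rich spots. S100a9, an abundant protein of neutrophils, rose from 10.7 to 33.0 scaled CPM in section 1 and from 33.1 to 82.4 in section 2 (log2 fold change 1.42, SE 0.22, adjusted p = 9.13e-04 by edgeR). Both sections moved the same way and by a similar fold, although the neighbors of section 2 stood as high as the hemoglobin-rich spots of section 1. S100a8, its partner, had a log2 fold change of 0.93 and did not pass (adjusted p = 0.138 by edgeR). Of 12 neutrophil genes 10 were tested, S100a9 alone was called, and the median log2 fold change was 0.74. In both sections 8 (80%) had a positive fold and 0 a negative fold, against 19.4% and 35.4% of all genes tested. The untested Retnlg and Camp had 1 UMI each in the hemoglobin-rich spots of section 1 and 6 each in those of section 2. Plac8, which marks classical monocytes among other cells, rose from 56.3 to 96.0 and from 14.1 to 57.1 scaled CPM (log2 fold change 1.39, SE 0.24, adjusted p = 0.0141 by edgeR). Ccr2, the receptor that draws monocytes out of the blood, had a log2 fold change of 0.86 and did not pass. Of 8 monocyte genes 7 were tested, 1 was called, and the median was 0.90, the highest of the 24 lists. In both sections 6 (85.7%) had a positive fold and 0 a negative fold, against the same shares of all genes tested. Summed monocyte genes stood at 294 against 216 CPM and at 187 against 101 CPM.

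No gene of the macrophage list was called, and called genes outside the lists were not sorted by cell type. Cd68, a lysosomal protein of macrophages, was at 535 against 505 scaled CPM in section 1 and at 585 against 312 in section 2, and Adgre1, which encodes F4/80, had a log2 fold change of 0.09. All 14 macrophage genes were tested. In both sections 8 (57.1%) had a positive fold and 0 a negative fold, against 19.4% and 35.4% of all genes tested. The median over the macrophage genes was 0.34. Their summed level was 8076 against 8015 CPM in section 1 and 12560 against 6537 CPM in section 2. None of the 14 was at 0. The summed level of macrophage genes thus moved with hemoglobin in section 2, as did that of neutrophil genes, at 283 against 129 CPM in section 2 and 243 against 217 CPM in section 1, and their part in the result for Hmox1 and the cytokine genes was not tested. Microglia genes gave no call, with a median of 0.11 over 9 genes, and Tmem119 and P2ry12, which mark resident microglia, had log2 fold changes of 0.08 and -0.04.

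Inflammatory mediators were among the called genes. Il1b, a cytokine of activated myeloid cells, rose from 13.3 to 24.0 scaled CPM in section 1 and from 31.9 to 118 in section 2 (log2 fold change 1.57, SE 0.23, adjusted p = 7.51e-04 by edgeR). In section 2, 140 of its 234 UMIs in hemoglobin-rich spots came from 1 patch of 16 spots, at 574.8 CPM. The other patches of at least 4 spots in that section stood at 17.0 to 91.0 CPM. The patch of 16 spots was kept where the largest patches were left out. Il6, a further cytokine, rose from 4.10 to 11 and from 3.95 to 18.2 scaled CPM, on 11 and 36 UMIs (log2 fold change 1.92, SE 0.37, adjusted p = 0.0133 by edgeR). Acod1, which makes itaconate in activated macrophages, was at 28.0 against 18.0 and 35.4 against 8.05 scaled CPM (log2 fold change 1.48). Hdc, the enzyme that makes histamine, was at 21.0 against 8.44 and 23.2 against 6.73 (log2 fold change 1.59). All 4 were higher in both sections, with the smaller fold in section 1 each time. Lymphocyte genes gave no call. Cd3d and Cd3e, of the T cell receptor complex, had log2 fold changes of 0.08 and 0.80, and Cd79a and Ms4a1, of B cells, had 0.53 and 0.58, with at most 11 UMIs in the hemoglobin-rich spots of section 1 and 19 in those of section 2 for any of the 4.

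Genes of clotting gave few calls. Of 21 genes of coagulation and fibrinolysis 19 were tested, 1 was called and was higher, and the median log2 fold change was 0.13. In both sections 8 (42.1%) had a positive fold and 3 (15.8%) a negative fold, against 19.4% and 35.4% of all genes tested. F3, the tissue factor that starts coagulation, had a log2 fold change of -0.07, and Thbd, the thrombin-binding receptor of the vessel lining, had 0.68, and neither passed.

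Markers of the vessel wall gave few calls. Pecam1, an adhesion protein between endothelial cells, was at 42.0 against 30.1 scaled CPM in section 1 and at 78.3 against 49.2 in section 2 (log2 fold change 0.60, adjusted p = 0.3 by edgeR), and Cdh5, the endothelial cadherin, was at 40.0 against 48.9 and at 96.5 against 71.9 (log2 fold change 0.15). None of the 23 endothelial genes tested was called. Of these, 9 (39.1%) had a positive fold in both sections and 1 (4.35%) a negative fold, against 19.4% and 35.4% of all genes tested. The median of the endothelial list was -0.18 in section 1 and 0.33 in section 2. Summed endothelial genes stood at 1489 against 1463 CPM in section 1 and 1837 against 1245 CPM in section 2. Mural cells, the muscle cells and pericytes around vessels, had 1 called gene of 20. Tagln, a protein of smooth muscle and of other contractile cells, rose from 32.4 to 103 and from 45.8 to 73.8 scaled CPM (log2 fold change 1.14, SE 0.21, adjusted p = 0.0123 by edgeR). In section 1, 91 of its 103 UMIs in hemoglobin-rich spots came from the largest patch. Without the largest patch of each section Tagln did not pass (log2 fold change 0.87, adjusted p = 0.352 by edgeR). Acta2, smooth muscle actin, was at 23.0 against 91.1 in section 1 and at 78.3 against 58.7 in section 2 and did not pass, so that the mural list did not move as 1 group. Its median was 0.07. Selp and Sele, the selectins of activated endothelium, had 2 and 5 UMIs in the hemoglobin-rich spots of section 1, 10 and 5 in section 2, and log2 fold changes of 0.04 and 0.43.

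Of 12 genes of vessel growth, 2 were called and both were higher. Apln, a peptide of sprouting endothelial tip cells, rose from 29.5 to 75.0 and from 50.7 to 94.5 scaled CPM (log2 fold change 1.09, SE 0.19, adjusted p = 0.00382 by edgeR). Angpt2, which loosens the contact between endothelium and pericytes, rose from 17.0 to 67.0 and from 56.5 to 94.5 (log2 fold change 1.23, SE 0.23, adjusted p = 0.0276 by edgeR). It is also the 1 called gene of the 10 genes of endothelial activation. For Apln and Angpt2 alike, both hemoglobin-rich libraries stood above both neighbor libraries. Without the largest patch of each section neither passed, with log2 fold changes of 0.83 and 1.09. Vegfa and Pgf, growth factors for vessels, had log2 fold changes of 0.21 and 0.03. In the vessel growth list 9 genes (75%) had a positive fold in both sections and 1 (8.33%) a negative fold. The shares over all genes tested were 19.4% and 35.4%. The median of the vessel growth list was 0.27. None of the 12 tested genes of the hypoxia list was called. Car9, a target of hypoxia, had a log2 fold change of -0.28, and the median was 0.02.

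Other called genes lay outside the gene lists and were not sorted by function or cell type. Gdf15, a stress-induced hormone, rose from 19.8 to 73.0 and from 20.8 to 45.5 scaled CPM (log2 fold change 1.48, adjusted p = 9.13e-04 by edgeR). Tgm1, a transglutaminase, rose from 73.0 to 325 and from 41.1 to 88.4 (log2 fold change 1.65), and Rasl11a, a small GTPase of the Ras family, from 44.6 to 165 and from 35.5 to 72.3 (log2 fold change 1.45). All 3 had the larger fold in section 1. Without the largest patch of each section none of them passed, and Rasl11a stood at a log2 fold change of 0.35. Further higher genes were Timp1, Rsad2, Cd5l, Clec4d, Mmp12, Slfn1, Saa3, Hbegf, Ccl6, Il1rn, Cd300lf, Emilin2, Akap12 and Cd36, with log2 fold changes between 0.83 and 1.37.

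Of the 7 lower genes, Krt19, Kctd14 and Tfcp2l1 had at most 4 UMIs in the hemoglobin-rich spots of section 1. Krt19, a keratin of epithelia and of the tumor, was at 3 against 2.29 scaled CPM in section 1 and at 96.5 against 248 in section 2 (log2 fold change -1.28, adjusted p = 0.0115 by edgeR), so that the call came from section 2. Sorbs2, a scaffold protein of the cytoskeleton, fell from 30.1 to 17.0 and from 867 to 454 scaled CPM (log2 fold change -0.91). Ltbp1, which anchors latent TGF-beta in the matrix, fell from 26.9 to 12 and from 163 to 81.4 scaled CPM (log2 fold change -1.03). Within neural-dominated spots alone Ltbp1 had a log2 fold change of -0.02 and Sorbs2 one of -0.42, and neither was called. Slc6a11, a GABA transporter of astrocytes, fell from 183 to 90.0 and from 24.2 to 14.1 (log2 fold change -0.93, adjusted p = 0.042 by edgeR). Stard10, a lipid transfer protein, fell by 0.77 on the log2 scale. No gene of the lower group was called without the largest patches. The epithelial list had a median of -0.64, at 0.29 in section 1 and -0.78 in section 2, and its summed level was 5442 against 7893 CPM in section 2 and 75 against 56 CPM in section 1. Epcam and Krt7, of the same list, had log2 fold changes of -0.62 and -0.65 and did not pass.

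Neural and supporting cells gave few differences between hemoglobin-rich spots and their neighbors. None of the genes on the lists for granule neurons, Purkinje cells, oligodendrocytes, astrocytes, choroid plexus or fibroblasts was called. The median log2 fold change was -0.27 for granule neurons, with Gabra6 at 0.05 and Cbln1 at -0.25, and 0.18 for Purkinje cells, with Pcp2 at 0.06 and Calb1 at 0.30. It was -0.13 for oligodendrocytes, with the myelin gene Mbp at -0.13, and -0.11 for astrocytes, with Gfap at 0.49 and Aqp4 at 0.00. The medians of the sections lay apart, at -0.05 and -0.53 for granule neurons in sections 1 and 2, 0.52 and -0.12 for Purkinje cells, -0.40 and 0.18 for oligodendrocytes, and -0.15 and -0.05 for astrocytes. Of the 9 granule neuron genes, 5 (55.6%) had a negative fold in both sections and none a positive fold in both. The shares over all genes tested were 35.4% and 19.4%. The choroid plexus, the blood-rich tissue that makes cerebrospinal fluid, had a median of -0.14, with Ttr at -0.09 and Kl at 0.43. Only 1 hemoglobin-rich spot of each section was among the top 3% by choroid plexus markers. That is a hemoglobin-rich share of 1.05% and 0.855%, against 3% of all spots with at least 2000 UMIs. Fibroblast genes had a median of -0.27, with Dcn at -0.07 and Lum at -0.56, and their summed level was 3699 against 11463 CPM in section 1 and 1146 against 909 CPM in section 2. Immediate early genes had a median of 0.16, with Fos at 0.19 and Fosb at 0.60, and cell cycle genes -0.22, with Mki67 at -0.58 and Top2a at -0.13.

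**Figure D3:**
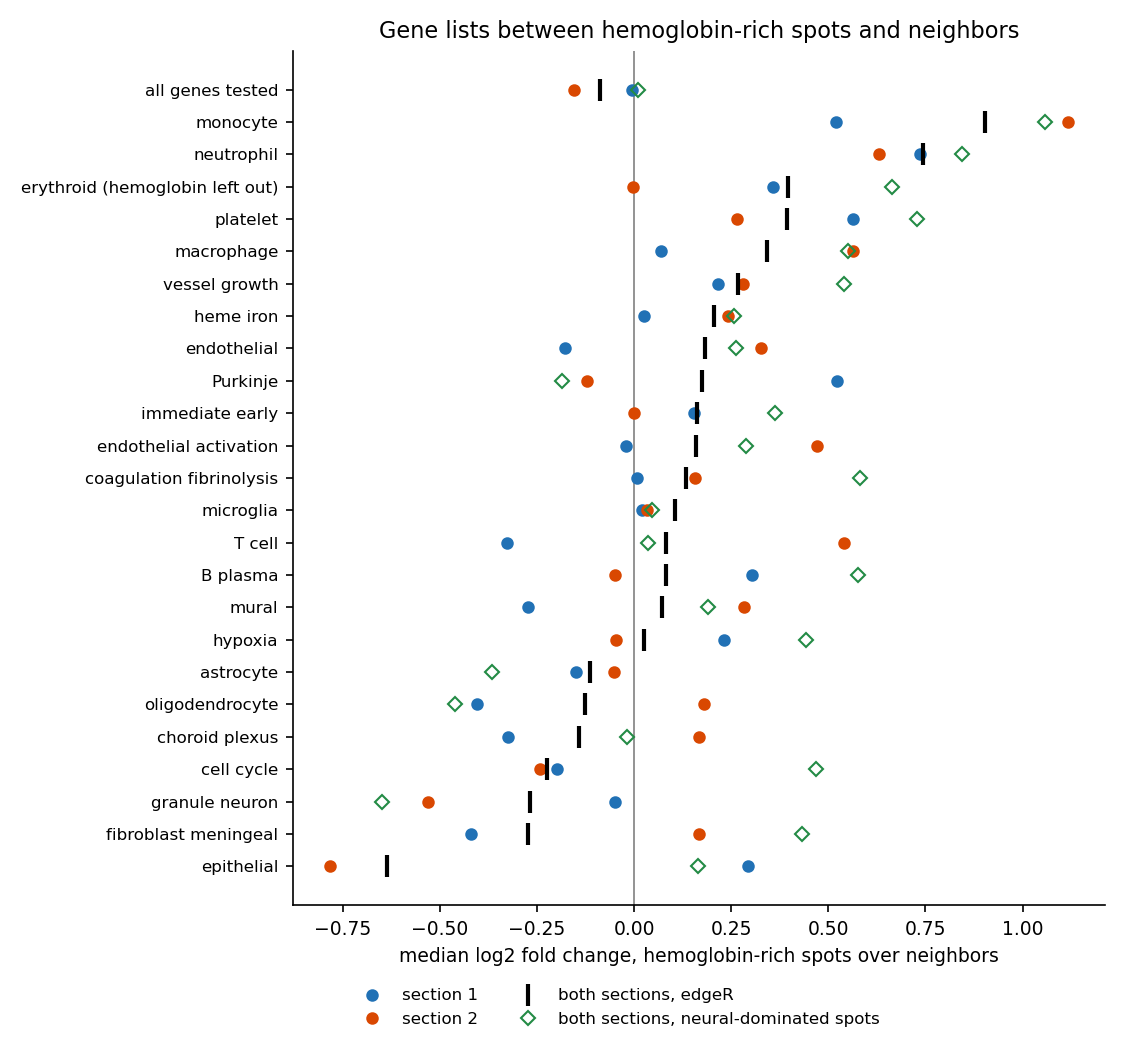
Median log2 fold change of each gene list between hemoglobin-rich spots and neighbors, in section 1 (blue), in section 2 (orange), by edgeR over both (black tick) and by edgeR within neural-dominated spots (green diamond). Monocyte and neutrophil lists have the highest medians, 0.90 and 0.74, while all genes tested lie at -0.09.

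Within neural-dominated spots alone, which leaves 91 and 87 hemoglobin-rich spots and 719 and 588 neighbors, many more genes were called. Here edgeR called 407 genes higher and 285 lower of 17435 tested, which is 2.33% and 1.63%. Of the 37 genes of the comparison over all spots, 30 were called again, all in the same direction. Hmox1 had a log2 fold change of 1.67 (adjusted p = 1.88e-09 by edgeR). Rasl11a, Krt19, Ltbp1, Kctd14 and Sorbs2 were among the 7 that were not called again, while the lower genes Slc6a11 and Stard10 were. Of 25 genes of heme and iron handling 5 were higher, which added Slc40a1, the iron exporter ferroportin (log2 fold change 0.94), Blvrb, a biliverdin reductase (0.62), and Bach1, a heme-sensing repressor (0.62). Tent5c, a poly(A) polymerase, joined Alas2 among the 17 erythroid genes tested, with a log2 fold change of 0.82.

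Further genes of the myeloid and clotting lists were higher in this subset, and levels of fibroblast, epithelial and cell cycle lists moved with them. Of 9 neutrophil genes tested, 5 were higher, namely S100a8, S100a9, Cxcr2, Csf3r and Il1r2, with log2 fold changes from 0.84 to 1.69. Of 14 macrophage genes, 5 were higher, and the largest change was that of Arg1, an arginine-consuming enzyme, at 1.04 (adjusted p = 1.94e-05 by edgeR). All 14 had a positive fold in both sections, against 29.5% of all genes tested in this subset. Spp1, which encodes osteopontin, changed by 0.73. Of 6 monocyte genes tested, 3 were higher, among them Plac8 and Ccr2. Summed macrophage genes stood at 6808 against 4685 CPM in section 1 and at 19087 against 12385 CPM in section 2, so that they moved with hemoglobin in both sections of this subset, and their part in the other results was not tested. Of 19 genes of coagulation and fibrinolysis, 7 were higher, among them Plaur (1.06), the receptor of urokinase, and Thbs1 (0.90), a matrix glycoprotein that platelets release. Pf4, which missed the threshold over all spots, was higher here by 1.07. Fibroblast genes, none of which was called, had a median of 0.43 and summed to 1996 against 1491 CPM in section 1 and to 832 against 619 CPM in section 2. Epithelial genes had a median of 0.17 and summed to 76.6 against 61.8 CPM and to 2168 against 1859 CPM, and the basal keratin gene Krt5 was the 1 of 11 that was higher (log2 fold change 1.15). Of 9 cell cycle genes tested, Mcm5 (1.12) and Mcm2 (0.78), of the helicase that unwinds DNA in replication, were higher, and the median was 0.47. The part of these lists in the other results of this subset was not tested.

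Some genes of the hypoxia, immediate early and vessel growth lists were higher within neural-dominated spots, and most members of each list did not pass. Adm, a vasodilator peptide, was higher by 1.45 on the log2 scale (adjusted p = 1.43e-06 by edgeR), Hk2, a hexokinase, by 1.08, and Vegfa by 0.84. In all, 5 of 12 tested genes of the hypoxia list were higher, 5 of 11 immediate early genes were higher, with Fosb at 1.10 and Atf3 at 0.96, and 4 of 12 vessel growth genes were. Over all genes tested in this subset 2.33% were higher. A positive fold in both sections was found for 11 hypoxia, 9 immediate early and 10 vessel growth genes, and a negative fold in both for none. Over all genes tested these shares were 29.5% and 29.2%. None of the 23 endothelial genes was higher here, and 1, the blood-brain barrier transporter gene Slco1a4, was lower, at -0.79 (adjusted p = 0.0232). Granule neuron genes were lower in 6 of 9 cases, with a median of -0.65, oligodendrocyte genes in 3 of 10 and astrocyte genes in 2 of 10. Markers of these cells took part in choosing the neural-dominated spots, and the part of that choice in these values was not tested.

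**Figure D4:**
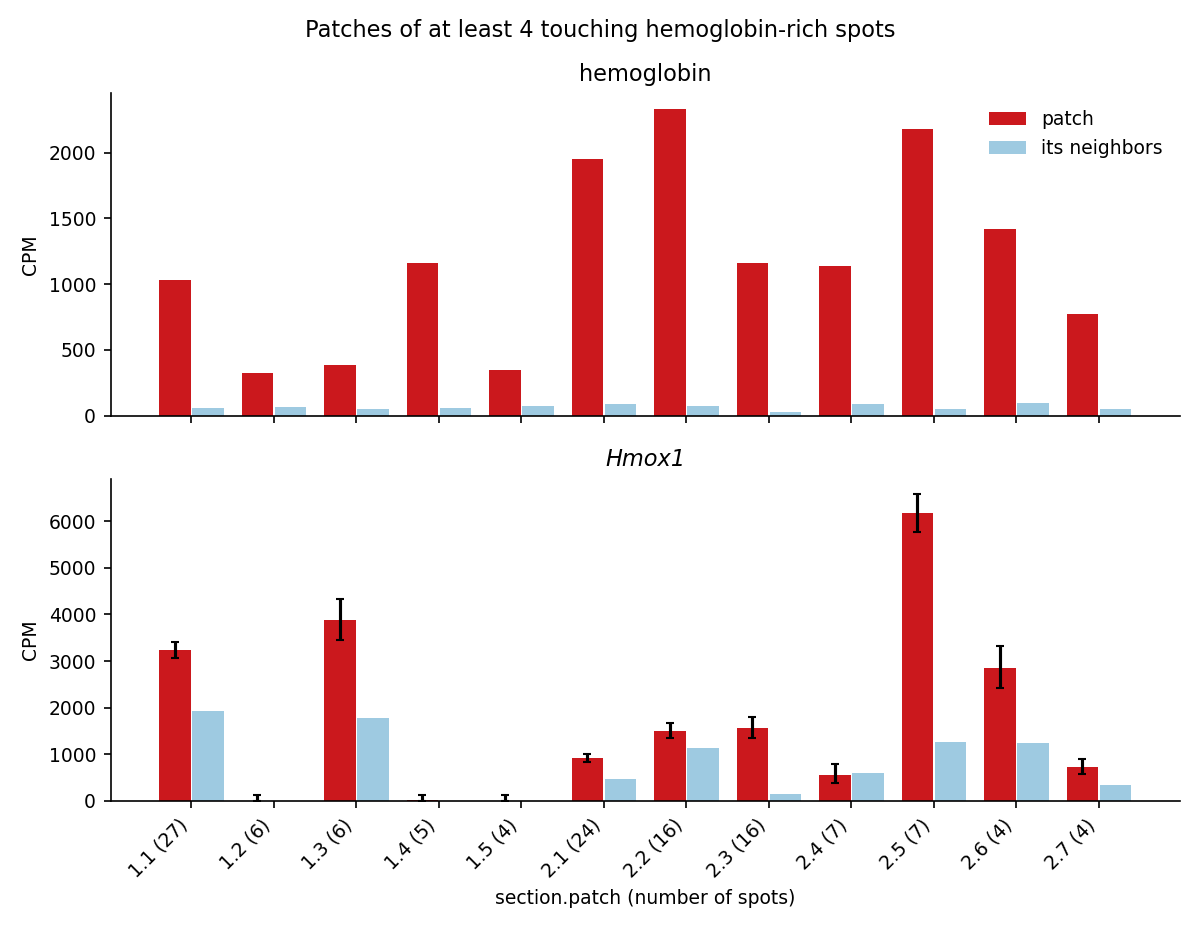
Level in CPM of hemoglobin and Hmox1 in each of the 12 patches of at least 4 touching hemoglobin-rich spots (red) and in the neighbors within 3 steps of that patch (blue), with the number of spots in parentheses and exact Poisson 95% intervals on the red Hmox1 bars. Hemoglobin is high in all 12 by choice, whereas Hmox1 lies between 0 and 22.7 CPM in 3 patches of section 1 and above 500 CPM in the other 9.

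Patches of similar hemoglobin level differed widely in Hmox1. Section 1 had 5 patches of at least 4 spots and section 2 had 7. The largest patch of section 1, with hemoglobin at 1029 CPM, had Hmox1 at 3237 CPM (95% interval 3073 to 3408), against 1926 CPM in its own neighbors. A patch of 5 spots in the same section had hemoglobin at 1160 CPM and Hmox1 at 22.7 CPM, which was 1 UMI (95% interval 0.576 to 126.8 CPM). The 2 patches thus had similar hemoglobin levels and Hmox1 levels whose intervals lay far apart. In 2 further patches of section 1, of 6 and 4 spots with 9 and 11 hemoglobin UMIs, no Hmox1 UMI was counted, and the upper end of the exact interval was 134.4 and 116.5 CPM. The neighbors of these 3 patches had Hmox1 at 0 to 5.18 CPM. In section 2 Hmox1 lay between 561.0 and 6172 CPM over the 7 patches, and in 6 of them it was above the level of their neighbors, with the interval of the patch of 7 spots at 561.0 CPM (386.1 to 787.8) including its neighbors at 592.8.

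Markers of the vessel wall and of macrophages also differed from patch to patch. In 1 of the 2 patches of 16 spots in section 2, Hmox1 stood at 1566 CPM against 143.9 CPM in neighbors. In that patch summed endothelial markers were at 2395 against 1060 CPM in its neighbors and mural markers at 870.1 against 291.9 CPM. In the largest patch of section 1 the same lists stood at 1619 against 1572 CPM and at 601.1 against 767.9 CPM. Levels of vessel wall markers relative to neighbors therefore varied between patches. Macrophage markers summed to 9920 CPM in the largest patch of section 1, below the 13920 CPM of its neighbors, and to 11278 CPM in that patch of 16 spots, above the 3293 CPM of its neighbors, and their part in the level of Hmox1 was not tested. The 3 patches of section 1 with at most 1 Hmox1 UMI had macrophage markers at 315.9 to 659.7 CPM.

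To see how far the pattern reached, spots were grouped by their distance in steps from the nearest hemoglobin-rich spot. Hemoglobin fell from 745.8 CPM in the chosen spots of section 1 to 69.4 CPM at 1 step, 36.8 at 2 steps and 24.6 at 3 steps, and from 1353 to 104.0, 39.2 and 27.7 CPM in section 2. All spots outside the chosen set lie below the limit of the rule, so that part of this fall is set by the choice. Hmox1, which did not choose the spots, fell from 2137 CPM to 1104 at 1 step and 612.4 at 3 steps in section 1. In section 2 it fell from 1263 to 534.0 and 232.9. The rule set the fall of hemoglobin, so that the 2 falls cannot be compared. At 4, 5 and 6 steps Hmox1 was at 524.6, 411.0 and 343.3 CPM in section 1, and at 232.0, 259.4 and 183.4 CPM in section 2. Il1b went from 28.1 to 19.2 and 12.98 CPM and from 109.3 to 38.2 and 21.8 CPM at 0, 1 and 3 steps. At the same distances S100a9 went from 38.6 to 14.4 and 10.2 CPM and from 76.2 to 41.7 and 17.7 CPM. Cdh5 was at 46.8 CPM in the chosen spots of section 1 and at 56.1 CPM 3 steps away, and at 89.2 and 54.4 CPM in section 2, without a common direction. Pecam1 was higher in the chosen spots than 3 steps away in both sections, at 49.1 against 40.0 CPM and 72.4 against 36.9 CPM. In section 1 its intervals overlapped. Summed endothelial genes stood at 1488 against 1494 CPM in section 1 and 1834 against 1107 CPM in section 2.

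**Figure D5:**
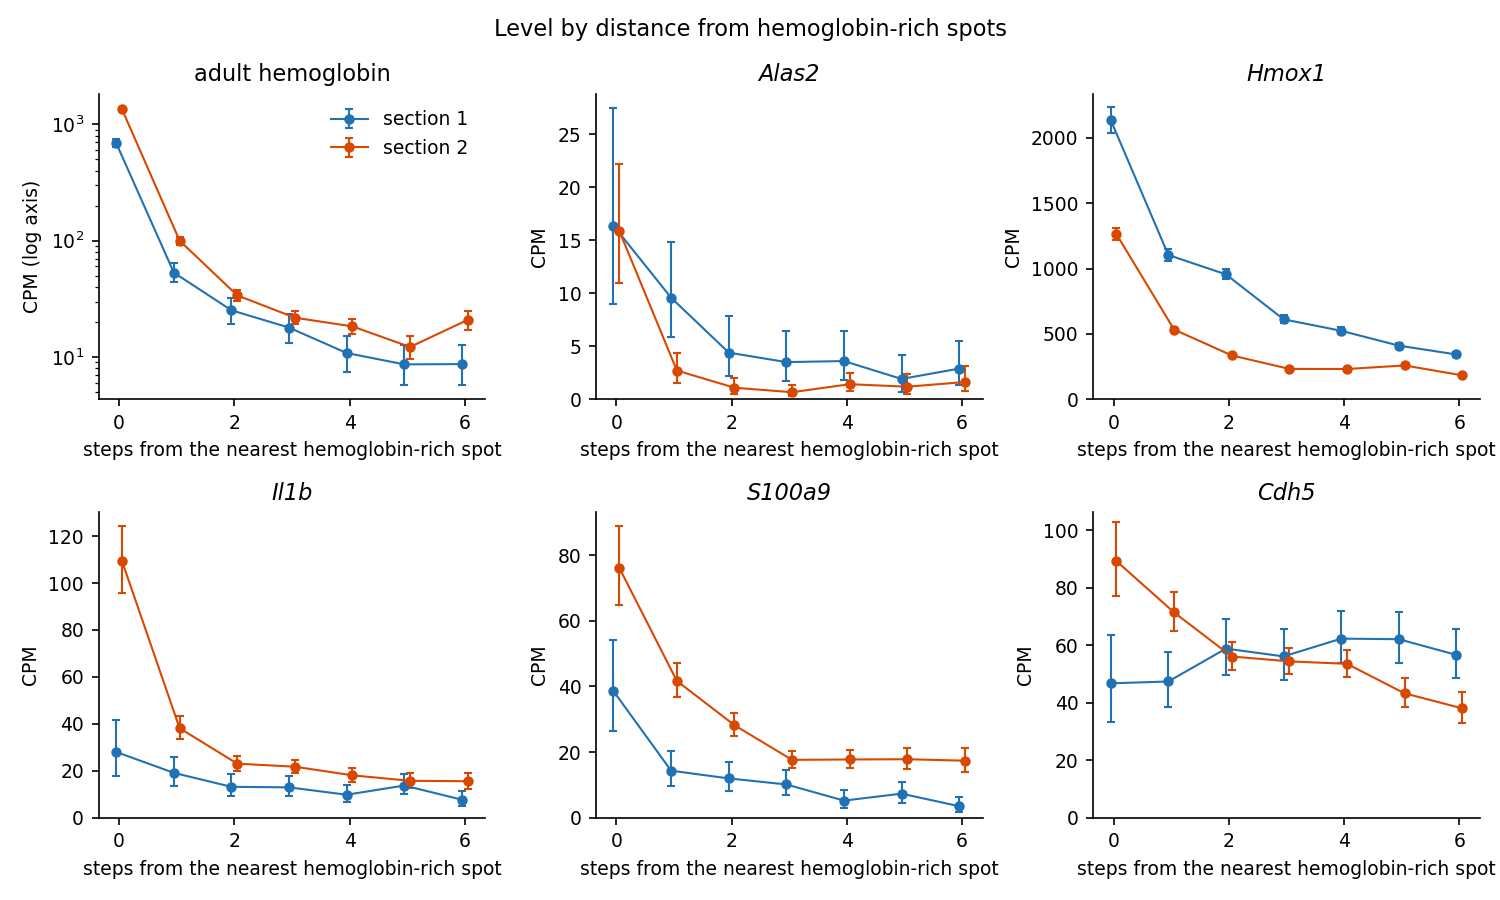
Level in CPM against the distance in steps from the nearest hemoglobin-rich spot (0 is the hemoglobin-rich spots), for adult hemoglobin (log axis) and 5 genes, in section 1 (blue) and section 2 (orange), with exact Poisson 95% intervals that cover counting error. Hmox1 declines over several steps in both sections, while Cdh5 differs in direction between sections.

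The spots at 1 step were compared with those at 3 steps in the same way, with hemoglobin genes kept in. Of 17073 genes tested by edgeR, 2 were higher at 1 step (0.0117%) and 1 was lower (0.00586%). The higher genes were both globin genes. Hemoglobin chose the spots from which the steps were counted and capped the level in both groups, so that the values of these genes are a description and no result of a test. Hbb-bs was at 23.3 against 5.84 scaled CPM in section 1 and at 56.0 against 10.6 in section 2, and Hba-a2 was at 19.3 against 8.76 and at 52.0 against 12.4. Crabp1 was lower, with 44 against 257 UMIs in section 1 and none in section 2, so that the call came from section 1. Hmox1 had a log2 fold change of 0.94 (adjusted p = 0.714 by edgeR), positive in both sections and not called. Without the section as a block, edgeR called no gene, and 3 had an unadjusted p below 0.05.

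Ranking spots by other genes picked mostly other spots. Of the top 3% of spots by Hmox1, 18.9% were hemoglobin-rich in section 1 and 24.8% in section 2. The sets have the same size in each section, so that these are shares of either set. Over all spots with at least 2000 UMIs the hemoglobin-rich share was 3% in each section, by choice. The share was 5.26% and 26.5% for neutrophil markers, 8.42% and 22.2% for monocyte markers, 4.21% and 11.1% for macrophage markers, 4.21% and 15.4% for endothelial markers, and 2.11% and 14.5% for mural markers. It was higher in section 2 for each of these rankings. The erythroid list without hemoglobin gave 9.47% and 5.13%. Of the shares in this paragraph, those of mural and fibroblast markers in section 1 lay below 3% and the others lay above it. The macrophage and endothelial shares of section 1 lay near 3% and rested on 4 shared spots each. These shares are descriptions of 2 sections, and no test was run on them.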

How the data were processed

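Transcripts were measured in 2 sections, 1 per replicate. UMI counting was done by the authors in Space Ranger 2.1.1, with mm10 as the genome build in the submitters' processing notes, and the deposited counts are whole numbers per gene and spot for 19465 genes, without normalization, UMI filter or doublet step. From these counts CPM was computed per spot, and a step was 1 place on the hexagonal array. UMIs were summed per section and region, and hemoglobin genes were taken out of totals and tests in the main comparison. edgeR 4.0.16 (R 4.3.3) was run with filterByExpr, TMM factors, glmQLFit with robust estimation and glmQLFTest, with the section as a block, since both regions of a section come from 1 mouse. Genes with an adjusted p (Benjamini-Hochberg) below 0.05 were called. Folds within 1 section used a pseudocount of 0.5 CPM, and the fit left 1 residual degree of freedom. The error therefore came mostly from dispersion shared across genes, with a median of 26.7 prior degrees of freedom. The SE and adjusted p do not measure the spread between the 2 sections. For Tgm1 the log2 fold change was 2.15 in section 1 and 1.10 in section 2, with an SE of 0.20. Python 3.11.15 and scipy 1.17.1 gave sums and intervals. The fitting procedure was also tested on simulated data with known changes, after the fits of the real data.

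The spots, the gene lists and the tests were chosen with earlier results of these data known. Single genes were named by rule: all hemoglobin genes, the first 2 genes of each of the 24 lists and up to 6 called genes of it, and the 10 largest called folds in each direction with the same sign in both sections and a mean of at least 5 CPM. Genes outside this rule were chosen after their values were seen. A symbol with more than 1 ID was counted once in a list, by the ID with the most UMIs. Alternatives were DESeq2 1.42.0, RLE factors, library size only, no filter, no block, a minimum of 5000 UMIs, the top 1% and 5%, ranking by raw UMIs, neighbors within 1 step, spots thinned to 2000 UMIs, neural-dominated spots, spots dominated by epithelial or fibroblast markers, neighbors with no minimum, hemoglobin kept in totals, and 8 libraries with 3 rings. After seeing the data, a minimum of 5 hemoglobin UMIs and leaving out the largest patch of each section were added. The list genes Ahsp, Ftl1, Ly6c1, Ly6c2, Ldha, Ero1a and Ccnb1 were not analysed here. Results for a few other genes, 1 of them called in the main comparison, are not reported here, and counts include them.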

Additional observations from a re-analysis of the deposited data

Results flagged for a closer look

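Spots with under 2000 UMIs were in no comparison. They held 14 hemoglobin UMIs over 242 spots in section 1, or 64.8 CPM (exact Poisson 95% interval 35.4 to 108.7), and 10 over 115 spots in section 2, or 77.9 CPM (37.3 to 143.2). Both were above the level of 3 UMIs, at 13.9 and 23.4 CPM, and spots with at least 2000 UMIs stood at 24.0 and 68.9 CPM.

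The log2 fold change between hemoglobin-rich spots and neighbors had opposite signs in neural-dominated spots and in spots dominated by epithelial or fibroblast markers for 3 of the genes named here, in both sections each time. It was -0.65 and 1.07 for Cbln1, -0.48 and 0.54 for Mbp, and -0.32 and 1.04 for Pcp2. The difference was not tested. The second kind of tissue held only 4 hemoglobin-rich spots in section 1, with 71429 UMIs and 56 neighbors, and 30 in section 2, with 415 neighbors. All 3 genes are among the markers that sorted the spots into these kinds of tissue.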

How the results depend on the processing

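The 37 genes called between hemoglobin-rich spots and neighbors became 163 with RLE factors, 197 with library size only, 148 with no filter, 98 with a minimum of 5000 UMIs, 72 with the top 5%, 67 with neighbors within 1 step, 94 with neighbors of any depth, 85 in the fit of 8 libraries with 3 rings, 692 in neural-dominated spots and 67 with at least 5 hemoglobin UMIs, and they became 12 with DESeq2, 19 in spots dominated by epithelial or fibroblast markers, 22 without the largest patches and 0 when ranked by raw UMIs. With no replicate block, although libraries are paired by section, the count was 0, and for 1 against 3 steps it was 0 too. The 3 genes called between 1 and 3 steps became 16 with RLE factors, 6 with library size only, 5 with no filter, 6 with a minimum of 5000 UMIs, 6 with the top 5%, 27 in neural-dominated spots, 21 in spots dominated by epithelial or fibroblast markers, 19 without the largest patches, 1 with DESeq2 and 1 in thinned spots. The causes were not tested. All 37 genes were called again, in the same direction, with RLE factors, library size only, no filter and hemoglobin kept in totals, and 18 of them in thinned spots. Library size only moved the median over all genes tested from -0.09 to 0.04 on the log2 scale. Leaving out a section leaves no residual degrees of freedom, so that counts could not be given. The fold of Krt19 was 0.33 in section 1 and -1.35 in section 2, so that it turned positive without section 2, and under raw ranking that of Slc6a11 was 0.0041, against a negative value. Of the 22 called genes named by rule, none other changed sign in any alternative. Genes called in neither setting changed sign 113 times, in 28 genes, with values from -0.67 to 1.07. Precision was limited by the 2 sections and, for Alas2, Il6 and Slc4a1, by few UMIs. The SE does not measure the spread between the sections.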
